A study of Mus musculus with 6 samples.

Results

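DNA replication and mitosis genes are the genes that commit a cell to S phase, copy its chromosomes and divide them. Chromatin accessibility was followed at 35 such genes of the mouse in CD8+ T cells exposed to palmitate. Each gene was represented by the accessible region, among those of the deposited count matrix (mm10), that lay within 1 kb of either end of the gene and had the highest mean count. Such a region was found for 34 of the 35 genes, and each of the 34 had exactly 1. They are 34 of the 24605 regions of the matrix and of the 8740 gene-end main regions that could be tested. Rrm2, the small subunit of ribonucleotide reductase, had no region within 1 kb of either end and is not described further.

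The palmitate group held 3 libraries of WT CD8+ T cells treated with palmitate, a saturated fatty acid, at 100 µM for 48 hours in complete T cell medium, and the control group held 3 libraries of WT CD8+ T cells given the treatment label Control. The study asked how palmitate affects CD8+ T cell function. All cells came from mouse pancreas, spleen and lymph nodes, 50000 sorted cells entered each library, and age, sex and strain are not stated in the labels. The labels carry 1 treatment text, which names palmitate, for all samples, and the groups rest on the treatment field. They do not say whether the tissues were pooled, what the controls received in place of palmitate, or whether each library had its own animal or culture. The p-values therefore rest on the scatter among these libraries alone, and that scatter may be technical. In ATAC-seq the Tn5 transposase cuts open DNA, and reads in a region measure accessibility, not transcript abundance. In such bulk libraries, a changed share of dividing cells and a changed accessibility per cell cannot be told apart.

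Entry into S phase is set by cyclin E with its kinase Cdk2 and by E2F transcription factors, which pocket proteins of the retinoblastoma family hold back until they are phosphorylated. Origins are licensed by loading of the MCM helicase before S phase, and the helicase is activated in S phase to copy the DNA. Many of the genes for the later steps are read out by factors that bind E2F sites, CHR elements (cell cycle genes homology regions) and CCAAT boxes in their promoters. Naive T cells rest outside the cycle, and activated CD8+ T cells divide fast, so this programme is strongly regulated in this cell type.

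The promoters of these genes carry letters of those elements more often than other promoters do. Promoter sequences (RefSeq, GRCm38.p6, the assembly of mm10; 250 bases before to 50 after the annotated start) overlapped the accessible region at 27 of the 34 genes. E2F letters (TTCCCGC, its variants with TTGGCGC and with TTCGCGC, and lastly TTGCCGC, on either strand) were in 14 of the 27 (51.9%), against 19.7% of 7829 promoters at tested gene-end regions and 9.74% of the promoters of all genes. CHR letters (TTTGAA and its variant TTCGAA, on either strand) were in 13 (48.1%), against 12.9% and 19.4%. The letters CCAAT on either strand were in 21 (77.8%), against 40.4% and 37.9%. CHR and CCAAT letters stood together in 12 of the 27 (44.4%), against 5.91% and 7.68%. E2F and CCAAT letters can overlap, as in Ccnb1. These shares were not tested, and the matches describe sequence and not binding.

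The following sequences are the 180 bases before the annotated start of 7 genes on which the results below turn. They comprise 4 genes called higher with TMM factors, E2f3, which was called lower with trended offsets only, and 2 genes called under neither scaling. All are on the minus strand and written 5′ to 3′, with E2F, CHR and CCAAT letters on either strand in capitals. They lie at chr11:99024190-99024369 (Top2a), chr7:135716380-135716559 (Mki67), chr13:100786487-100786666 (Ccnb1), chr7:38107491-38107670 (Ccne1), chr13:29986064-29986243 (E2f3), chr1:128359706-128359885 (Mcm6) and chr4:118437344-118437523 (Cdc20).
Top2a: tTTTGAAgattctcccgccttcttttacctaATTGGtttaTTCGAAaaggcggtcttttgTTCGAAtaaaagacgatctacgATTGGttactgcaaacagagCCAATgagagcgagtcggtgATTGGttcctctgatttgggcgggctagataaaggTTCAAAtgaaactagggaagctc
Mki67: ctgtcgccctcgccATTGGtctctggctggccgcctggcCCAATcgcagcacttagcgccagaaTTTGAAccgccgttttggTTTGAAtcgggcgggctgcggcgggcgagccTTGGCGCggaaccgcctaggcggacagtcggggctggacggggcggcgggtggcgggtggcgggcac
Ccnb1: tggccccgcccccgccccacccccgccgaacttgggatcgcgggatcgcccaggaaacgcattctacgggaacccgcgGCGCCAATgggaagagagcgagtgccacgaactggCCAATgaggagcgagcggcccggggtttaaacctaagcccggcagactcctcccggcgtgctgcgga
Ccne1: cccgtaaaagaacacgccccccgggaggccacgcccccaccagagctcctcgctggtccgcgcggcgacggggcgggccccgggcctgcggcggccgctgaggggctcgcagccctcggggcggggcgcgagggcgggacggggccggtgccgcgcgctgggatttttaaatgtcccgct
E2f3: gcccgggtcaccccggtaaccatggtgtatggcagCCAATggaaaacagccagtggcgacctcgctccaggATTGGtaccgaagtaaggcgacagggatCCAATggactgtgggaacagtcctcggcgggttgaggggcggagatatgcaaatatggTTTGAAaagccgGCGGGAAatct
Mcm6: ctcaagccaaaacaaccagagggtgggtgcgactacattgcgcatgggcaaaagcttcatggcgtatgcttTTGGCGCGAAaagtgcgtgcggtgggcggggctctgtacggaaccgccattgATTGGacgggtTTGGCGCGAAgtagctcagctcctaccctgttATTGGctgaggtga
Cdc20: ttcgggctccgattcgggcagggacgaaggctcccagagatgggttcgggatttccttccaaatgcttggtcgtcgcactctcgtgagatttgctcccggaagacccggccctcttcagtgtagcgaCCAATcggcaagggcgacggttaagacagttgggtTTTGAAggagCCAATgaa
Top2a holds 4 CHR and 4 CCAAT matches, Mki67 holds 2 CHR, 2 CCAAT and 1 E2F match, and Ccne1 holds none of the letters in this window. Mcm6 holds 4 E2F matches in 2 overlapping pairs. Cdc20 holds a CHR match 18 bases before the start with a CCAAT match on each side of it.

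In 6 of the 34 genes, accessibility was higher in palmitate than in control: Top2a, Rb1, Ccne1, Cdc6, Ccnb1 and Mki67. No member was called lower, and 28 did not pass the test (edgeR quasi-likelihood test with TMM factors, adjusted p under 0.05 over all 24316 tested regions, Benjamini-Hochberg). At an unadjusted p under 0.05 the same edgeR test counted 12 higher and 0 lower, at a background of 16.8% higher and 19.7% lower over all regions, 35.7% and 4.08% at gene ends, and 42.8% and 2.7% at like strength. The DESeq2 Wald test called 3 higher and 0 lower, at a background of 7.94% higher and 5.01% lower over all regions, 18.3% and 0.469% at gene ends, and 22% and 0.314% at like strength. The background of higher calls was 11.9% of all tested regions, 26.4% of gene-end main regions and 32% of the 4781 gene-end regions of like strength, against 17.6% of the members. The background of lower calls was 12.7%, 1.92% and 1.28%. The members' higher share thus lay below that of gene ends of like strength, where 11.2 higher and 0.375 lower calls would fall on 34 regions, so their count is not a result about these genes. The median log2 fold change, palmitate over control, was 0.12 over the members (range -0.45 to 0.53, 23 positive and 11 negative), 0.15 over gene-end main regions, 0.18 at like strength and -0.05 over all tested regions.

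Fold changes in these libraries followed region strength, and the median over all regions depended on the scaling, so changes are also given with trended offsets, which take out each library's trend of counts on mean abundance. With trended offsets edgeR called 2 members higher, Top2a and Rb1, and 1 lower, E2f3, at a background of 2.3% higher and 4.17% lower over all regions. At gene ends this background was 2.62% higher and 1.34% lower, and at like strength it was 2.43% and 1.59%. At an unadjusted p under 0.05 the trended edgeR test counted 2 members higher and 4 lower, at a background of 10.8% and 11.4% over all regions, 12.8% and 5.8% at gene ends, and 11.9% and 6.27% at like strength. The members' median was then -0.04, against 0.05 at gene ends and 0.04 at like strength, with 12 members positive and 22 negative.

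**Figure D1:**
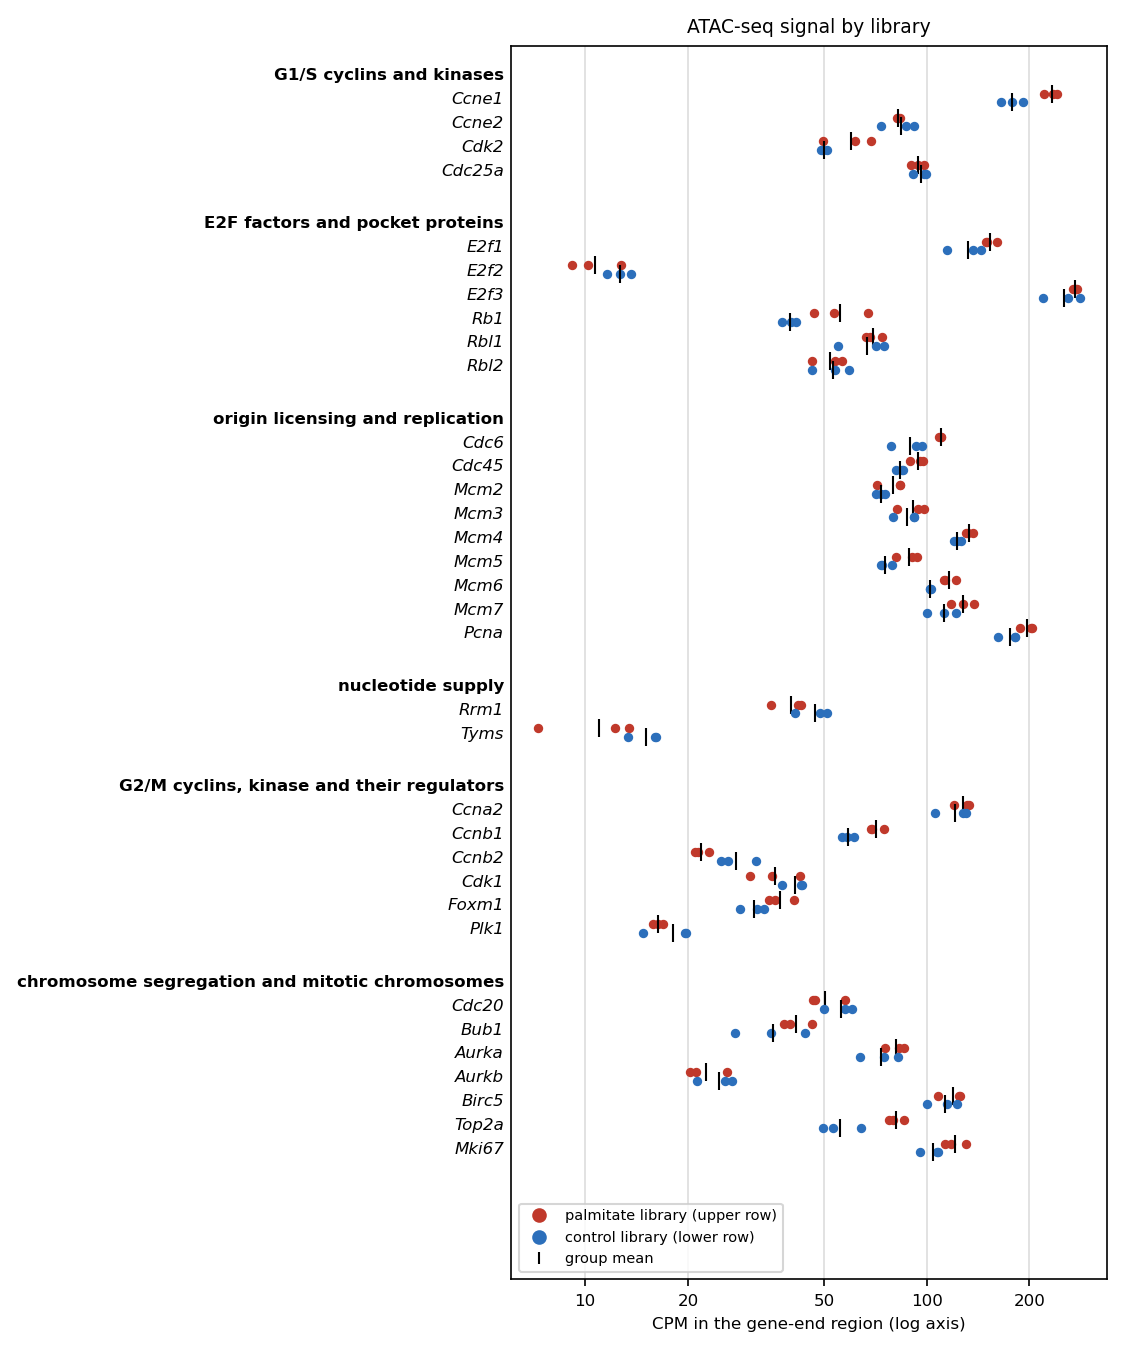
Accessibility (CPM, log axis) at the gene-end region of each of the 34 genes, grouped by role, with 1 point for each palmitate (upper row) and each control library (lower row) and a bar at each group mean. Palmitate points lie wholly to the right of control points in 13 genes, among them Top2a, Rb1, Ccne1, Cdc6, Ccnb1 and Mki67, and wholly to the left only in Ccnb2.

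Levels in CPM (counts scaled to library size with TMM factors) ranged over the members from 11.7 at E2f2 to 263 at E2f3, with a median of 77.1 and raw counts of 19 to 790 per region and library. The 3 palmitate libraries all lay above the 3 controls in 13 of the 34 members, a separation seen in 17.9% of all tested regions, 37.2% of gene-end regions and 43.8% at like strength. They all lay below in 1 member, Ccnb2, against 21%, 5.8% and 3.91%. An exact permutation of 3 against 3 libraries cannot reach a p below 0.1, so single genes were tested only in the fit over all regions.

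Among the genes of the G1/S transition, 1 of 4 was called higher with TMM. It was Ccne1, and 82.5% of the 200 gene ends nearest to it in mean accessibility were also called higher. Ccne1, which encodes cyclin E1, had 234, 241 and 220 CPM in the palmitate libraries, against 165, 178 and 191 CPM in the control libraries (232 ± 10.9 and 178 ± 13.4, SD, n = 3 each). Every palmitate library lay above every control at this region (chromosome 7, 38107415 to 38108118), which overlaps the start of the gene. On the log2 scale the change was 0.38 ± 0.0692 (SE), with an edgeR adjusted p of 0.000198. With trended offsets it was 0.09 and did not pass (adjusted p 0.434). Cdk2, the kinase that cyclin E activates, had 49.7, 61.5 and 68.6 CPM in palmitate, against 49.7, 48.9 and 51 CPM in control. One palmitate library lay within the control range, and the difference did not pass (log2 fold change 0.27, edgeR adjusted p 0.096; 0.17 with trended offsets). Ccne2 (cyclin E2; region 583 bp from the gene end) and Cdc25a, a phosphatase that activates cyclin-dependent kinases, had log2 fold changes of -0.02 and -0.04. With trended offsets these were -0.19 and -0.23, and neither passed.

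The E2F and pocket protein genes moved in no single direction. Rb1, which encodes the retinoblastoma protein that restrains E2F, had 53.6, 67.3 and 46.8 CPM in palmitate, against 40.1, 41.3 and 37.7 CPM in control (55.9 ± 10.4 and 39.7 ± 1.79, SD, n = 3 each). All palmitate libraries were above all controls at this region (chromosome 14, 73325670 to 73326256), and palmitate 2 was the highest. The change was 1.42-fold with a 95% interval of 1.19 to 1.69 (log2 0.50 ± 0.13, SE; edgeR adjusted p 0.00507), and 0.44 on the log2 scale with trended offsets (adjusted p 0.039). Without palmitate 2 the TMM adjusted p was 0.0922, and with trended offsets it was 0.261. Trended calls at Rb1 were also lost without control 1 (0.095), control 3 (0.176) or palmitate 1 (0.066).

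E2f3, an activating E2F factor and the strongest region of the set, had 273, 268 and 276 CPM in palmitate, against 281, 219 and 260 CPM in control (chromosome 13, 29986028 to 29986512). The groups overlapped, and the TMM log2 fold change was 0.11 (adjusted p 0.261). On the trended scale the same counts gave 250, 237 and 245 in palmitate, against 308, 254 and 283 in control, with every palmitate value below every control. There E2f3 fell by 0.20 on the log2 scale (SE 0.0606; edgeR adjusted p 0.0384), so its sign depends on the scaling. The trended call held only without control 2 (adjusted p 0.00152) and was lost when any of the other 5 libraries was left out (0.0666 to 0.243). The remaining members of the group did not pass under either scaling. E2f1, a further activating E2F, had a log2 fold change of 0.21 (adjusted p 0.0561) and -0.04 with trended offsets. E2f2 had 10.2, 9.17 and 12.7 CPM in palmitate, against 12.6, 11.6 and 13.6 CPM in control, overlapping groups at the weakest region of the set (log2 fold change -0.24, and 0.04 with trended offsets). The pocket protein genes Rbl1 and Rbl2 had 0.07 and -0.03, and -0.07 and -0.12 with trended offsets.

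All 9 genes of origin licensing and replication had positive log2 fold changes with TMM, from 0.06 to 0.30, and 1 of them passed. That gene was Cdc6, and 43% of the 200 gene ends nearest to it in mean accessibility were also called higher. With trended offsets 2 of the 9 were positive and 7 negative, and none passed, so the shared sign depends on the scaling. Cdc6, which loads the MCM helicase onto origins, had 110, 109 and 110 CPM in palmitate, against 92.8, 78.5 and 97.2 CPM in control (110 ± 0.696 and 89.5 ± 9.78, SD, n = 3 each). The palmitate libraries were tightly grouped above all controls at chromosome 11, 98907469 to 98907998, and control 2 was the lowest. Its change was 0.30 ± 0.0876 on the log2 scale (SE; edgeR adjusted p 0.0123), and 0.10 with trended offsets (0.494). Without control 2 it was 0.21 and no longer passed (adjusted p 0.0818).

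The MCM genes, which encode the subunits of the replicative helicase, stood close to one another. Mcm2 to Mcm7 had palmitate to control folds of 1.04 to 1.18 with TMM. The 95% intervals, not adjusted for the number of regions, included 1 at Mcm2, Mcm3 and Mcm4, with a lowest bound of 0.919. They lay above 1 at Mcm5 (1.04 to 1.33), Mcm6 (1.01 to 1.26) and Mcm7 (1.03 to 1.29). None of the MCM genes passed after adjustment. Their trended log2 fold changes ran from -0.12 at Mcm3 and Mcm4 to 0.07 at Mcm5. Mcm5, the largest of them, had 90.7, 81.5 and 93.6 CPM in palmitate, against 78.9, 73.9 and 73.4 CPM in control. Its groups did not overlap (log2 fold change 0.23, edgeR adjusted p 0.0609; 0.07 with trended offsets). Mcm6, whose promoter holds the 4 E2F matches shown, had 112, 113 and 122 CPM in palmitate, against 102, 103 and 102 CPM in control, again without overlap (0.17, adjusted p 0.11; -0.03 with trended offsets). Pcna, the sliding clamp of DNA polymerases, had 203, 202 and 188 CPM in palmitate, against 181, 162 and 181 CPM in control (0.18, adjusted p 0.0556; -0.09 with trended offsets). Cdc45, a partner of the helicase, had 0.17 and -0.01. The regions of Mcm4, Mcm7, Pcna and Cdc45 also lie at the ends of Prkdc, Ap4m1, Cds2 and Ufd1, so their counts cannot be assigned to 1 gene.

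Both measured genes of nucleotide supply had negative log2 fold changes, and neither passed. Tyms, which makes thymidylate, had 13.4, 12.2 and 7.29 CPM in palmitate, against 16.1, 16 and 13.3 CPM in control. Palmitate 3 was the lowest library and palmitate 1 lay just inside the control range, and the change of -0.45 ± 0.243 on the log2 scale (SE; edgeR adjusted p 0.176) was -0.20 with trended offsets. Rrm1, the large subunit of ribonucleotide reductase, had 35.1, 42.1 and 42.9 CPM in palmitate, against 48.8, 50.9 and 41.1 CPM in control, with overlap (-0.22, adjusted p 0.216; -0.27 with trended offsets). The Tyms interval reached from 0.525-fold to 1.02-fold, and at these low counts both a loss of that size and no loss lie inside it.

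**Figure D2:**
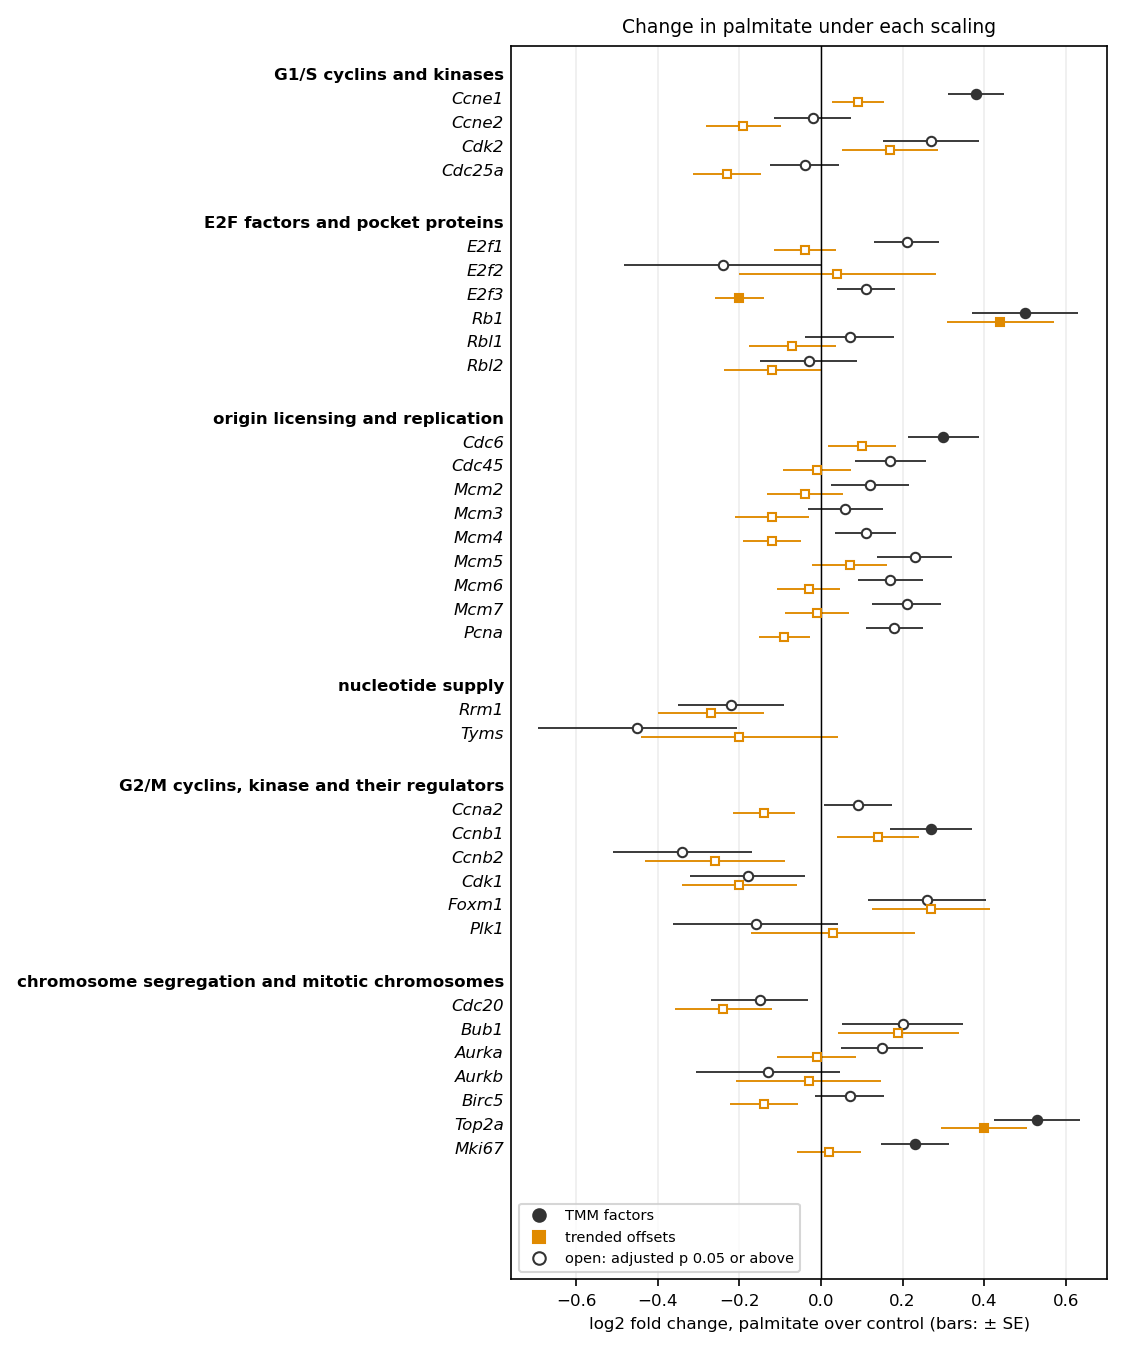
Log2 fold change, palmitate over control, with its SE at each of the 34 genes under TMM factors (circles) and trended offsets (squares), filled where the edgeR adjusted p was under 0.05. Top2a and Rb1 are filled under both scalings, and E2f3 is at 0.11 with TMM and at -0.20 with trended offsets.

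The B-type cyclins, which drive entry into mitosis, stood on opposite sides of 0. Ccnb1 (cyclin B1) had 68.6, 69 and 75.2 CPM in palmitate, against 58.4, 61.2 and 56.4 CPM in control (70.9 ± 3.69 and 58.7 ± 2.4, SD, n = 3 each; chromosome 13, 100786450 to 100786815). Its groups did not overlap, and it just passed (log2 fold change 0.27 ± 0.101, SE; edgeR adjusted p 0.0468), against 0.14 and an adjusted p of 0.427 with trended offsets. It no longer passed when control 1 was left out (0.0932), nor without control 3 (0.112), palmitate 1 (0.0645), palmitate 2 (0.0733) or palmitate 3 (0.169). Ccnb2 (cyclin B2) had 20.9, 21.4 and 23 CPM in palmitate, against 26.1, 25 and 31.6 CPM in control. Every palmitate library was below every control, but the difference did not pass (-0.34 ± 0.17, SE; edgeR adjusted p 0.14; trended value -0.26). The difference between Ccnb1 and Ccnb2 was not tested.

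None of the other G2/M genes passed under either scaling. Foxm1, a transcription factor of the G2/M genes, had 41, 36 and 34.5 CPM in palmitate, against 31.8, 28.3 and 33.3 CPM in control. Its groups did not overlap, and its change was 0.26 ± 0.144 on the log2 scale (SE; edgeR adjusted p 0.198) and 0.27 with trended offsets. Its region is shared with Rhno1. Cdk1, the mitotic kinase, had 30.4, 42.5 and 35.3 CPM in palmitate, against 43.1, 37.6 and 42.8 CPM in control, with overlap (-0.18; -0.20 with trended offsets). Plk1, the polo-like kinase, had -0.16 and 0.03. Ccna2 (cyclin A2; region 685 bp from the gene end and shared with Bbs7) had 0.09 and -0.14.

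Among 7 genes of chromosome segregation and mitotic chromosomes, 2 were called higher with TMM, Top2a and Mki67. Of the 200 gene ends nearest in mean accessibility, 28% were called higher at Top2a and 53.5% at Mki67. Top2a, the topoisomerase that untangles replicated chromosomes, had 85.9, 77.5 and 79.8 CPM in palmitate, against 53.2, 64.2 and 49.6 CPM in control (81.1 ± 4.38 and 55.7 ± 7.61, SD, n = 3 each; chromosome 11, 99024002 to 99024483). All palmitate libraries lay clear of all controls, and control 2 was nearest to them. The change was 1.45-fold with a 95% interval of 1.26 to 1.67 (log2 0.53 ± 0.105, SE; edgeR adjusted p 0.000417), and 0.40 ± 0.106 on the log2 scale with trended offsets (adjusted p 0.0217). On the trended scale the values were 82.7, 73.3 and 75.9 in palmitate, against 55.7, 68 and 51.6 in control, still without overlap. Under that scaling it no longer passed when control 1 (0.0855), control 3 (0.178), palmitate 1 (0.0877) or palmitate 3 (0.0664) was left out, at log2 fold changes of 0.30 to 0.42.

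Mki67, which encodes the proliferation antigen Ki-67, had 113, 130 and 118 CPM in palmitate, against 108, 95.5 and 107 CPM in control (121 ± 9.05 and 104 ± 7.06, SD, n = 3 each; chromosome 7, 135716278 to 135716826). The groups did not overlap but lay close, and the change of 0.23 ± 0.0834 on the log2 scale (SE) had an edgeR adjusted p of 0.0444. The trended value was 0.02 (0.933). It no longer passed when control 2 (adjusted p 0.149), control 3 (0.0561), palmitate 2 (0.232) or palmitate 3 (0.0859) was left out. The 5 other genes of the group did not pass under either scaling. Bub1, a kinase of the spindle checkpoint, had 38.2, 39.8 and 46 CPM in palmitate, against 27.5, 43.9 and 35 CPM in control, with overlap (0.20; 0.19 with trended offsets). Cdc20, which activates the anaphase-promoting complex, had 46.5, 47.2 and 57.5 CPM in palmitate, against 57.5, 49.9 and 60.5 CPM in control, with overlap (-0.15; -0.24 with trended offsets). Aurka (Aurora A; region shared with Cstf1), Aurkb (Aurora B) and Birc5 (survivin) had 0.15, -0.13 and 0.07, and -0.01, -0.03 and -0.14 with trended offsets.

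**Figure D3:**
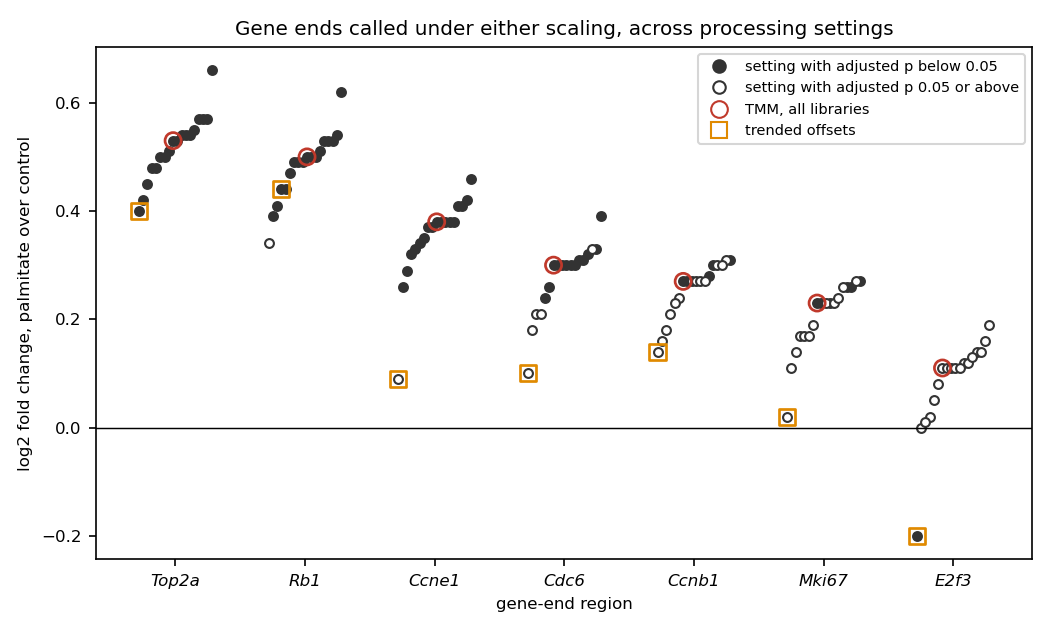
Log2 fold change, palmitate over control, at the 7 regions called under either scaling, with 1 point per processing setting, filled where the adjusted p was under 0.05, and rings around TMM with all libraries and squares around trended offsets. Top2a is filled in every setting shown (0.40 to 0.66), while E2f3 is filled only with trended offsets, at -0.20, where it lies below 0.

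**Figure D4:**
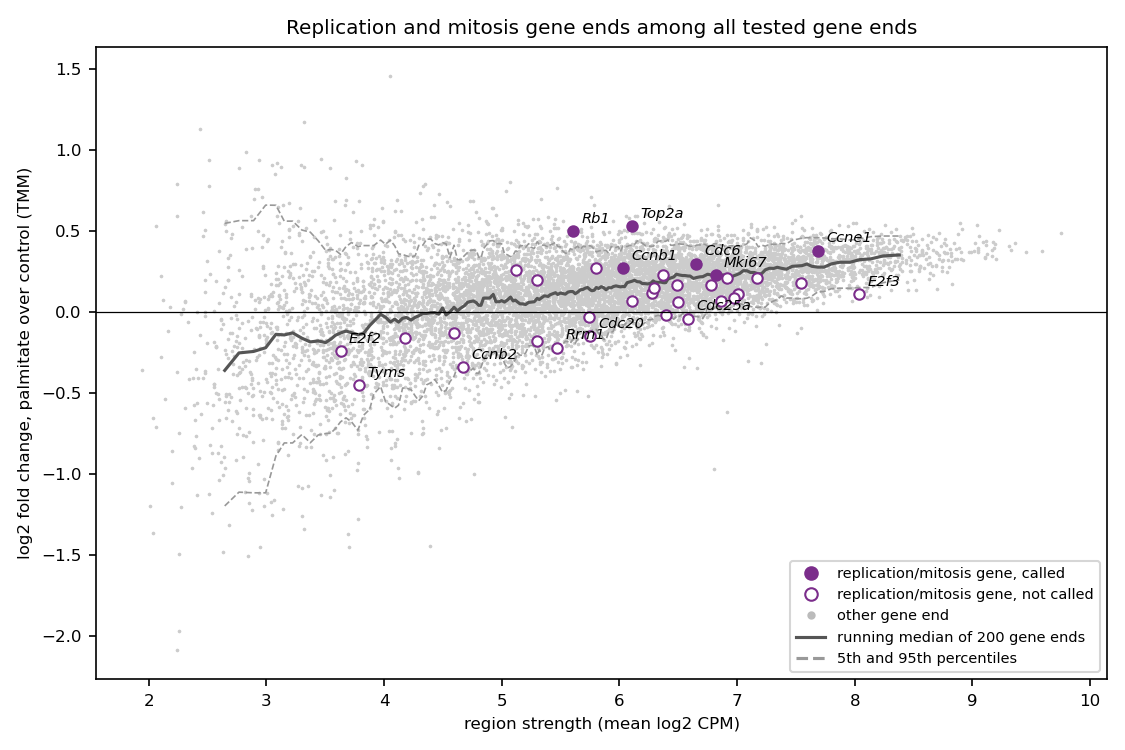
Log2 fold change, palmitate over control (TMM), against mean accessibility (log2 CPM) for the gene-end main regions and the 34 genes, with the running median (line) and the 5% and 95% points (dashed) over 200 gene-end regions. Top2a and Rb1 lie above the upper dashed line, and 25 of the 34 genes lie below their neighbours' median.

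Set against the 200 gene-end regions nearest in mean accessibility to each gene, 9 members lay above and 25 below their neighbours' median, with a median difference of -0.12 on the log2 scale. These are descriptions with no test. Top2a (0.34 above) and Rb1 (0.37 above) exceeded the 95% point of their neighbours. Cdc25a, E2f3, Rrm1 and Cdc20 lay under the 5% point, at differences of -0.26, -0.21, -0.34 and -0.29. By definition 5% of the neighbours lie beyond each point, against 2 and 4 of the 34 members. These positions alone are therefore not a result about these genes. Across 5 classes of gene-end regions from weakest to strongest (1748 each), the share called higher was 1.72%, 4.18%, 13%, 38.4% and 74.8%. The members called higher in these classes were 0 of 3, 0 of 5, 2 of 6, 3 of 12 and 1 of 8. In the strongest class Ccne1 was the called member, while E2f1, E2f3, Mcm4, Mcm7, Pcna, Ccna2 and Birc5 were not called, and the members' median of 0.15 stood beside 0.28 for all gene ends of that class.

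**Figure D5:**
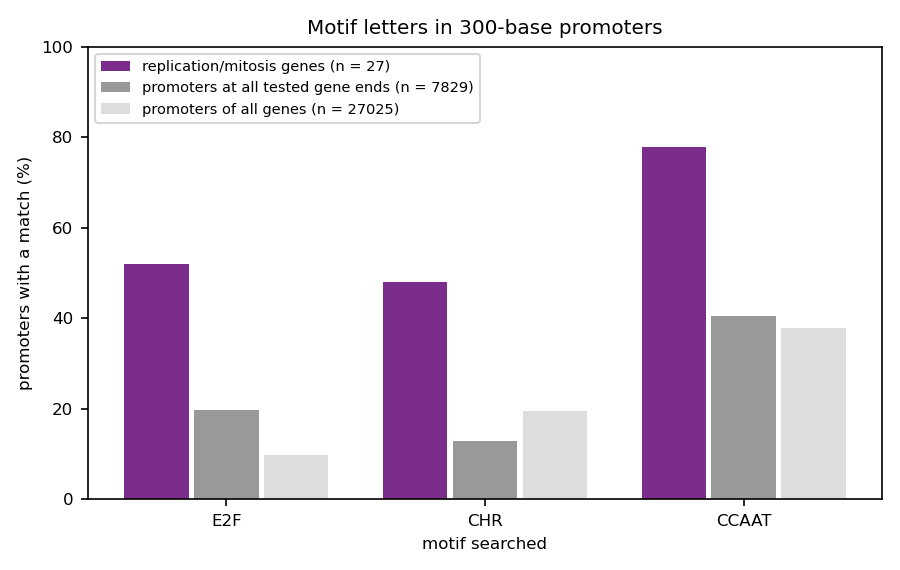
Share of promoters (percent) that hold E2F, CHR or CCAAT letters, for the 27 genes with a promoter at their region, for promoters at tested gene-end regions and for promoters of all genes. The members' bars are the highest for each element, with 77.8% holding CCAAT.

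No test was made of fold changes against promoter letters. The median log2 fold change was 0.14 in the 14 genes with E2F letters and 0.12 in the 13 without, 0.12 in those with and in those without CHR letters, and 0.15 with and 0.07 without CCAAT letters (21 and 6 genes). The trended medians were -0.02 with and -0.04 without E2F letters, -0.01 and -0.05 for CHR letters, and -0.01 and -0.10 for CCAAT letters. Among the promoters shown, Top2a with 4 CHR and 4 CCAAT matches and Ccne1 with none were both called higher with TMM. Cdc20, with CHR and CCAAT matches beside its start, and Mcm6, with 4 E2F matches, were not.

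The other genes of DNA replication and mitosis were called higher about as often as gene ends in general. Of 106 listed genes, 98 had a gene-end region, and 29 were called higher and 3 lower (edgeR, TMM). The higher share was 29.6%, against 26.4% of all gene-end regions and 11.9% of all tested regions. The background of lower calls was 1.92% and 12.7%. No share at like strength was taken for this list, so its count is not a result about these genes. Their median log2 fold change was 0.18. With trended offsets 0 were called higher and 5 lower, at a gene-end background of 2.62% and 1.34%, with a median of -0.01. At an unadjusted p under 0.05 the trended edgeR test counted 6 higher and 14 lower of the 98, at a gene-end background of 12.8% and 5.8%. DESeq2 called 23 higher and 0 lower, at a gene-end background of 18.3% and 0.469%. With TMM the edgeR counts were 10 higher and 2 lower of 40 licensing and fork genes, 4 and 0 of 13 E2F and DREAM complex genes, and 15 and 1 of 45 mitotic genes. The higher shares were 25%, 30.8% and 33.3%, at the same gene-end background of 26.4%.

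Of the higher ones, Rbbp4, a histone chaperone found in the DREAM complex, averaged 342 ± 17.3 CPM in palmitate and 265 ± 7.37 CPM in control (SD, n = 3 each; log2 fold change 0.37, edgeR adjusted p 5.86e-05; 0.03 with trended offsets). Wee1, the kinase that inhibits Cdk1, averaged 211 ± 5.2 CPM in palmitate and 162 ± 10.4 CPM in control (0.38, adjusted p 0.000161; 0.11 with trended offsets). Ube2c, the ubiquitin-conjugating enzyme of the anaphase-promoting complex, was higher by 0.40 with TMM and 0.18 with trended offsets. Orc6 of the origin recognition complex was at 0.39 and 0.17, and the chromatin protein Hmgb2 at 0.34 and 0.05. The sign depended on the scaling at Fzr1, which activates the anaphase-promoting complex (0.32 with TMM and -0.03 with trended offsets), and at Cdca3 (0.27 and -0.09). Of the 200 gene ends nearest in mean accessibility, 94.5% were called higher with TMM at Rbbp4, 80% at Wee1, 49% at Ube2c and 53.5% at Orc6. The shares were 84% at Hmgb2 and 97% at Fzr1 and Cdca3. Against their neighbours' median the genes named here ranged from -0.08 (Cdca3) to 0.19 (Ube2c). None of these named genes was called with trended offsets. The regions of Rbbp4, Orc6 and Cdca3 also lie at the ends of Zbtb8os, Vps35 and Usp5, so their counts cannot be assigned to 1 gene.

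With TMM 3 of these genes were lower. Pola1, the catalytic subunit of DNA polymerase alpha, averaged 21.9 ± 1.05 CPM in palmitate and 32.4 ± 4.77 CPM in control (SD, n = 3 each; log2 fold change -0.56, edgeR adjusted p 0.0133; -0.49 and 0.0678 with trended offsets). Prim2, the large subunit of its primase, averaged 21.7 ± 3.08 CPM in palmitate and 31 ± 4.51 CPM in control (-0.54, adjusted p 0.0202; -0.46 and 0.0955 with trended offsets). Of the other subunits of that polymerase and primase, Pola2 was at -0.08 and Prim1 at -0.53 (adjusted p 0.765 and 0.103), and neither passed. Tpx2, a spindle assembly factor, averaged 55.2 ± 5.43 CPM in palmitate and 68.9 ± 3.01 CPM in control and was lower under both scalings (-0.32, adjusted p 0.025; -0.44 and 0.0102). With trended offsets Gins2 of the helicase complex (-0.23, edgeR adjusted p 0.00473) and the polymerase delta subunit Pold3 (-0.38, 0.012) were also lower. So were the spindle checkpoint protein Mad2l1 (-0.25, 0.0341) and the spindle motor Kif11 (-0.31, 0.039), both near the threshold. The trended calls of these genes are not given with 1 library left out. The TMM values of Gins2, Pold3, Mad2l1 and Kif11 were 0.14, -0.20, -0.01 and -0.10. None of them passed, and that of Gins2 had the opposite sign.

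Total counts in regions were 2614890 to 3089230 in palmitate libraries and 2219136 to 2855574 in control libraries. Control 2 stood apart from its group: in chi-square tests of the counts, the statistic over its degrees of freedom was 2.03 and 2.06 for its pairs with the other controls, 1.2 for controls 1 and 3, and 1.19 to 1.5 for palmitate pairs. Regions at all 7 T cell and CD8 markers were found and none was called (summed CPM 309 to 364 in palmitate and 314 to 351 in control). No region lay at any of 5 B cell markers, nor at Cd4 or Foxp3. Of 6 myeloid markers 3 had a region (summed CPM 36 to 42.2 in palmitate and 28.3 to 37.7 in control). A weak region near the end of Itgam had 13, 9.85 and 13 CPM in palmitate, against 6.54, 5.32 and 7.14 CPM in control (edgeR adjusted p 0.0151, and 0.00469 with trended offsets). The Itgam region was not called with DESeq2 (adjusted p 0.0682) and met a peak in 3 of the 6 lists. The Spi1 and Cebpa regions, at log2 fold changes of 0.08 and -0.01 (0.39 and 0.18 with trended offsets), were called under neither scaling. Zbtb7b, a factor of the CD4 lineage, was higher in palmitate with TMM (log2 fold change 0.48, edgeR adjusted p 0.0121), with overlapping groups, and was not called with trended offsets (0.40, 0.0886) or DESeq2 (0.0539). Of 4 genes listed as NK cell markers only Eomes had a region (30.6 to 35.3 CPM in palmitate and 25.7 to 26.9 CPM in control), which alone cannot identify NK cells. Of 6 pancreas and 4 erythroid markers 1 each had a region. None of these 3 was called. The part of other cells in the results above was not tested.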

How the data were processed

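ATAC-seq of 3 palmitate and 3 control libraries was measured as raw read counts per region, deposited by the authors as 1 matrix of 24605 regions (mm10), and as 6 filtered peak lists, 1 per library, each with the authors' own peak score, which was not used in any test. Per the submitters' processing notes the tools included Bowtie2 2.5.1 and Trim Galore 0.6.10, with MACS2 2.2.8, edgeR 3.40.2 and Picard 2.23.8. How reads were counted, how regions were merged, and whether reads were shifted to the Tn5 cut site is not given in the sources used here. Member genes and all lists were chosen with earlier results of these data known.

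Counts were tested with edgeR 4.0.16 (R 4.3.3; TMM, filterByExpr, which removed 289 regions, glmQLFit and glmQLFTest, two-sided, Benjamini-Hochberg at 0.05 over 24316 regions). The SE is the absolute log2 fold change over the square root of F, and 95% intervals are 1.96 SE on either side, approximate at 3 libraries. Trended offsets were fitted by loess (span 0.3) of each library's log2(count + 0.5) on mean abundance. The common biological coefficient of variation was 0.0659. The script was tested on simulated data. Alternatives used DESeq2 1.42.0 and limma 3.58.1, other scalings, filters and distances, and each library left out. Gene ends and promoters came from RefSeq tables of GRCm38.p6, and motif letters were searched on both strands. Values per library were printed for members called under either scaling, for the 6 uncalled members with the largest absolute log2 fold change, and for Mcm6, Pcna, Rrm1, Cdk1, Cdc20 and Bub1, which were chosen after their values were seen. Of other pathway genes, the 8 called with the smallest p in each direction were named, except 1 that is not reported here.

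No pairing of the libraries by replicate number was seen in the counts. Deviations of same-numbered libraries from their group means were correlated at 0.000449, -0.104 and -0.027.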

Additional observations from a re-analysis of the deposited data

How the results depend on the processing

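Top2a was called higher under all 18 alternative settings (log2 fold change 0.40 to 0.66, adjusted p at most 0.0217). Ccne1 and Rb1 were called higher under 17, Cdc6 under 13, Mki67 under 6 and Ccnb1 under 5, and E2f3 was called lower under 1. For the 6 members called higher with TMM, 2 of the 18 could only repeat the call. These were the false discovery rate of 0.1 and the distance of 2.5 kb, which kept the same region. The 18 do not include trended offsets with 1 library left out, where Top2a was not always called. In place of 6 higher members, 3 were called with the DESeq2 Wald test, 10 with DESeq2 size factors in edgeR, 11 at a false discovery rate of 0.1, 3 in regions of all 6 peak lists, 2 with trended offsets and 3 with total counts. Leaving out 1 library gave 4 to 7 with TMM and 0 to 2 with trended offsets, an alternative chosen after seeing the data. Lower members were 0, against 1 with total counts (Ccnb2, adjusted p 0.0491), 1 with trended offsets, and 0 to 1 with trended offsets and 1 library left out. The members' median of 0.12 was 0.03 in regions of all 6 lists, -0.04 with trended offsets, 0.00 with total counts and 0.06 with upper-quartile scaling, and 0.10 to 0.17 with 1 library left out. Over all regions 5972 were called, 3160 with the DESeq2 Wald test, 2838 in regions of all 6 lists, 1573 with trended offsets, and 3997 to 6165 with 1 library left out.

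The sign of the log2 fold change turned at the following members and at some of the other pathway genes named for their calls (Mad2l1, Fzr1, Cdca3 and Gins2). Pathway genes not named for their calls are left out of this list, and the sign turned with trended offsets at some of them too. With DESeq2, as Wald test and as size factors, Ccne2 was at 0.01 and Mad2l1 at 0.02. In regions of all 6 lists Birc5 was at -0.02, Mcm3 at -0.03 and Rbl1 at -0.02. With total counts Birc5 was at -0.04, Ccna2 at -0.03, Mcm3 at -0.06 and Rbl1 at -0.05. With trended offsets the log2 fold changes were -0.01 at Aurka, Cdc45 and Mcm7, -0.14 at Birc5 and Ccna2, -0.04 at E2f1 and Mcm2, 0.04 at E2f2, -0.20 at E2f3, -0.12 at Mcm3 and Mcm4, -0.03 at Mcm6 and Fzr1, -0.09 at Pcna and Cdca3, 0.03 at Plk1, -0.07 at Rbl1 and -0.23 at Gins2. With 1 library left out Ccne2 ranged from -0.11 to 0.08, Mcm3 from -0.01 to 0.14, Rbl1 from -0.06 to 0.15, Rbl2 from -0.11 to 0.08 and Mad2l1 from -0.09 to 0.08. The cause of these shifts was not tested.

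The replicate block called 4 members higher and 5533 regions in all, and the block with trended offsets called 2 higher and 1 lower. No library correlated best with its own number. With 3 libraries per group this check cannot exclude a pairing, and the labels do not state one. Sums over all gene-end regions of a gene were not run, since each member has 1. Weak regions such as E2f2, Tyms and Plk1 carry the widest errors, with SEs of 0.202 to 0.243 on the log2 scale.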

Other observations

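Accessible regions inside the member genes, away from their ends, were few. There were 7, in Rbl1 and E2f2 (2 each), Rbl2, E2f3 and Rb1, all genes of the E2F and pocket protein group. None was called with TMM or with trended offsets (edgeR). The median log2 fold change was 0.09 with TMM, where 1 of the 7 was negative, and 0.26 with trended offsets, where 0 were. The Rb1 region (chromosome 14, 73243918 to 73244456) had 7.1, 10.2 and 7.29 CPM in palmitate, against 9.15, 9.65 and 8.16 CPM in control, overlapping groups at -0.12 ± 0.277 (SE; edgeR adjusted p 0.791) with TMM and at 0.26 with trended offsets, so its sign depends on the scaling.

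Within 2.5 kb in place of 1 kb of a gene end, the main region of Cdk2 became a stronger one that also lies at the ends of Pmel and Rab5b. That region was higher in palmitate with TMM (log2 fold change 0.50, edgeR adjusted p 1.55e-06) but was not called with trended offsets (0.16, adjusted p 0.0713), whereas the region overlapping the start of Cdk2 passed under neither scaling.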
